A study of Mus musculus with 6 samples.

Results

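The loci of 8 lineage transcription factors, Sox17, Pax6, Foxa2, Cdx2, Eomes, Gata4, T and Gata6, were examined for DNA methylation in E14 mouse embryonic stem cells. The members are the CpG cytosines that lie in 1 fixed window around each gene on the mm9 build. The windows were from 15000 to 57000 bp long, and the choice used positions only. They held 673 cytosines listed in any library, and 352 of these were listed in all 6 libraries, out of 369208 such cytosines on the autosomes. Methylation was measured by reduced representation bisulfite sequencing (RRBS), which reads CpG-rich fragments cut at CCGG by MspI and does not tell 5-methylcytosine from 5-hydroxymethylcytosine. E14 is an established mouse embryonic stem cell line, although the labels give the name under developmental stage. In 1 group the cells received a control shRNA, a short hairpin RNA that serves as the reference. The 5 knockdown groups received shRNAs to Dnmt1, to Dnmt3a, to Dnmt3b, to both Dnmt3 enzymes (called the double knockdown), and to Tet1 with Tet2. No treatment time and no remaining level of the targets is given in the labels. Each group is 1 library, so no difference between conditions has a replicate error or a test. The SD given beside a mean is over cytosines of a locus.

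The 8 genes encode DNA-binding proteins that direct early lineages. Foxa2 (a forkhead factor) and Sox17 (an HMG-box factor) act in definitive endoderm, Gata4 and Gata6 (zinc finger factors) in primitive endoderm and heart, T (brachyury) and Eomes (T-box factors) in mesoderm and mesendoderm, Cdx2 (a caudal homeobox factor) in trophectoderm and gut, and Pax6 (a paired-box factor) in neural ectoderm and eye. Their promoters lie in CpG islands, which are stretches rich in CpG that are mostly free of methylation. In embryonic stem cells such islands are typically held silent by Polycomb complexes rather than by methylation. DNMT3A and DNMT3B place methyl groups on unmethylated CpGs, DNMT1 copies them after replication, and TET1 and TET2 oxidise them.

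An island was read here as a CpG-dense block, which is a run of at least 10 cytosines listed in all 6 libraries with gaps of at most 100 bp. The rule used positions and no levels. It found 8 blocks with 140 cytosines: 2 at Cdx2, 1 each at Sox17, Foxa2, Eomes, Gata4, T and Gata6, and 0 at Pax6. The remaining 212 cytosines are called flank, and 136 of them lay in 21 shorter clusters of 5 to 9 cytosines. A block is a sampled part of an island, since RRBS reads only the ends of MspI fragments.

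The sequence at the Foxa2 block is shown because it is the only member promoter that could be placed on mm9. In RefSeq, 8 promoters of 5 of the genes were at hand, with between 10 and 23 CG pairs in 300 bases against a median of 7 over 32851 promoters. Of the 3 Foxa2 starts at hand, only 1 was placed, at position 147872705 of chromosome 2 on the minus strand. The placement matched the 5 bases that the deposited files give around each cytosine. All 8 listed cytosines inside the promoter matched at this spacing. The 250 bases before this start (RefSeq sequence of build GRCm38.p6, minus strand, lying at chr2:147872706-147872955 on mm9) read as follows, with the 3 CpGs read in all 6 libraries in capitals:
Foxa2: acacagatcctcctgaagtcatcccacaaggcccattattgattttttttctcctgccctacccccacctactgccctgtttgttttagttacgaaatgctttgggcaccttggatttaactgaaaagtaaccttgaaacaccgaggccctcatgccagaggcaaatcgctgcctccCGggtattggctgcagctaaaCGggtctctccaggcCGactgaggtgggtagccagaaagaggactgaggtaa

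At other members the overlapping 5-base contexts join into short stretches of mm9 sequence, and 1 stretch of each of 5 genes is shown on the plus strand for the density of CpGs it holds, with CpGs listed in all 6 libraries in capitals. They lie at chr1:4482409-4482422 (Sox17), chr5:148118411-148118429 (Cdx2), chr9:118388107-118388119 (Eomes), chr17:8626874-8626886 (T) and chr14:63859757-63859774 (Gata4).
Sox17: gcCGtCGagCGCGg
Cdx2: cCGcCGCGgcCGccaCGtg
Eomes: ccCGgaCGgcCGc
T: tcCGcccCGcCGc
Gata4: cCGaCGggcCGgcccCGg
The cytosines in the Sox17 and Eomes stretches read 0% in all 6 libraries. Those in the Cdx2 stretch averaged 0.54% in control, and those in the Gata4 stretch 2.33%.

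The blocks of the 8 genes were low in methylation but not alike. Over the 7 loci with a block, control averaged 2.95% ± 3.34 (SD over loci), with the Foxa2 locus highest and Eomes lowest. Tet1 and Tet2 averaged 3.27%, Dnmt3b 2.82%, Dnmt3a 0.965%, the Dnmt3a and Dnmt3b double knockdown 0.802% and Dnmt1 0.441%. All 140 block cytosines had a median over the libraries below 20%. In control 18.6% of them were above 5%, against 5.18% of cytosines in the 9426 low blocks of all autosomes. After Dnmt3a knockdown these shares were 4.29% and 2.16%, and after Dnmt1 knockdown 1.43% and 0.983%. In the double knockdown the members were below the low blocks, at 1.43% against 2.34%. The Dnmt3b shares were 15.7% and 6.06%, and the Tet1 and Tet2 shares 18.6% and 6.96%. The member shares pool blocks that differ. In control the highest block cytosine read 0.90% at Sox17 and 0.80% at Eomes, so neither gene adds to the control share. The Foxa2 and Gata4 blocks averaged 9.27% and 5.44%.

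**Figure D1:**
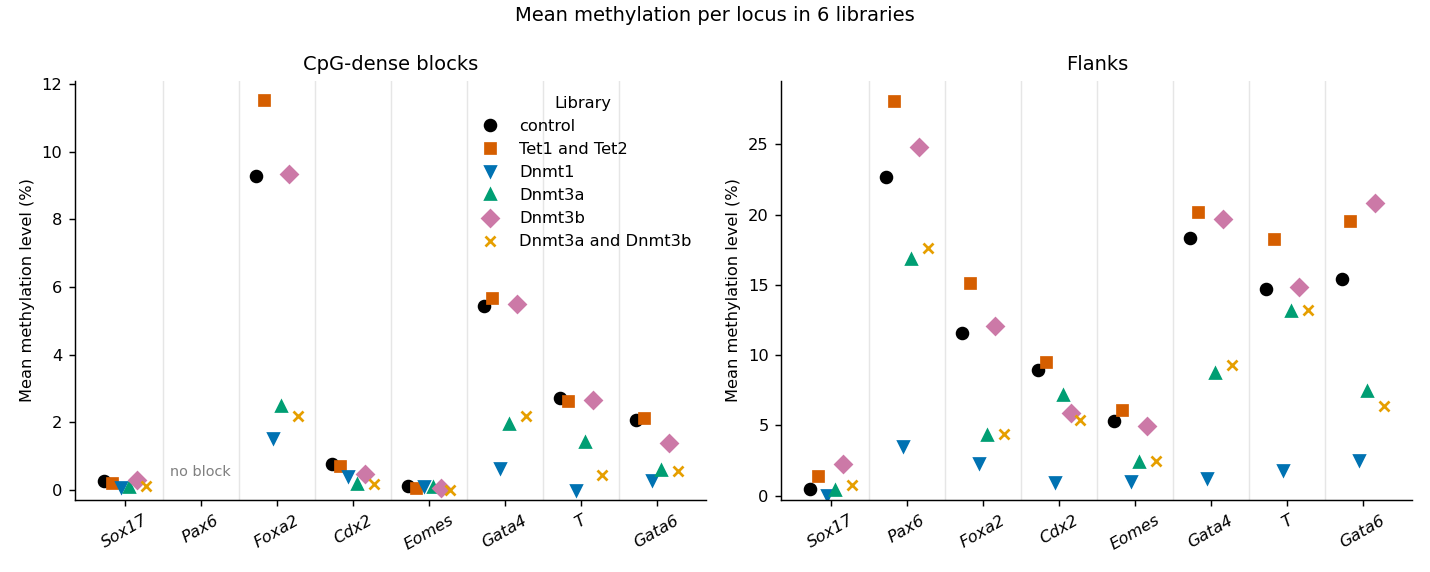
Mean methylation level in percent (y axes) of the CpG-dense blocks (left) and flanks (right) of each gene (x axes), with 1 point per library and no error bars, since each group is 1 library. Foxa2 and Gata4 have the highest blocks, at 9.27% and 5.44% in control, and both lie near 2% after Dnmt3a and after Dnmt3a and Dnmt3b knockdown; Pax6 has no block.

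Foxa2 had the most methylated block. Its 10 cytosines (chromosome 2, 147872649 to 147872778) averaged 9.27% ± 4.86 in control, 11.5% ± 6.3 after Tet1 and Tet2 knockdown, 9.35% ± 4.93 after Dnmt3b, 2.48% ± 1.92 after Dnmt3a, 2.17% ± 1.66 in the double knockdown and 1.54% ± 1.94 after Dnmt1 knockdown. All 10 cytosines were lower than control in each of the Dnmt1, Dnmt3a and double knockdown libraries, and 8 were higher after Tet1 and Tet2 knockdown. These 3 libraries were the lowest on both strands: the plus strand averaged 9.43% in control and 1.90% after Dnmt3a knockdown, and the minus strand 8.90% and 3.83%. Of 9896 blocks on the autosomes, 8.05% had a higher level in control. The median block there read 0.113%.

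The Foxa2 block spans the placed start, with all 7 downstream cytosines on the plus strand and the 3 upstream ones on the minus strand. The promoter sequence reaches 50 bases past the start and holds 5 of the 7. In the printed sequence the first capital CpG, 73 bases before the start, read 13.9% in control, 21.3% after Tet1 and Tet2, 14.9% after Dnmt3b, 6.10% after Dnmt3a, 5.0% in the double knockdown and 6.20% after Dnmt1 knockdown. The CpGs at 52 and 37 bases before the start read 6.80% and 6.0% in control, and 3.0% and 2.40% after Dnmt3a knockdown. The highest control level of the block, 17.9%, was at the cytosine 14 bases after the start, which read 2.70% after Dnmt3a and 18.3% after Dnmt3b knockdown. All 8 cytosines inside the promoter were lower in the Dnmt1, Dnmt3a and double knockdown libraries than in control.

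**Figure D2:**
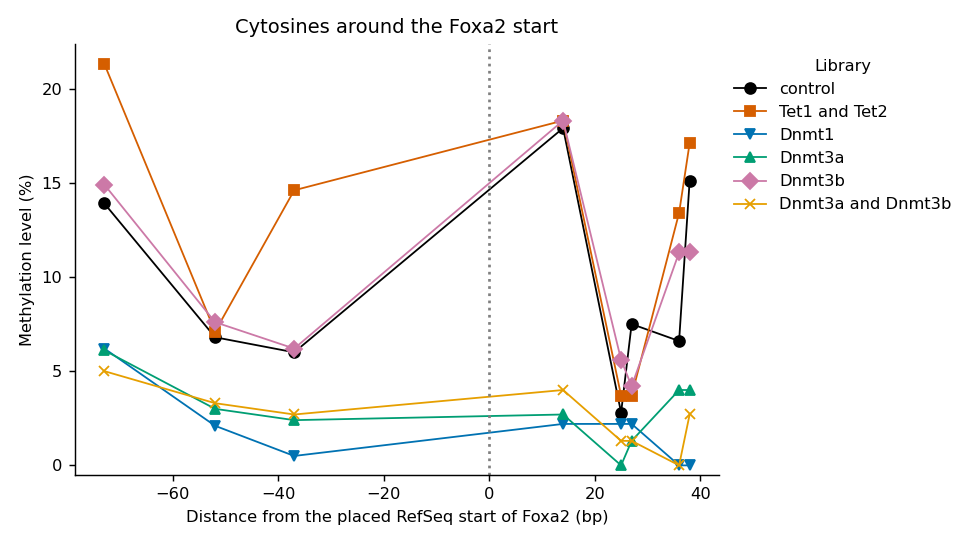
Methylation level in percent (y axis) of the 8 cytosines around the placed Foxa2 start against distance in bp from it (x axis; negative is upstream), with 1 line per library. Control ranges from 2.80% to 17.9%, and the Dnmt1, Dnmt3a and double knockdown points lie below the control point at every cytosine.

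Gata4 and Gata6 had partly methylated sequence close to or within the block. The Gata4 block (21 cytosines, chromosome 14, 63859653 to 63859941) averaged 5.44% ± 4.78 in control, 5.68% ± 5.67 after Tet1 and Tet2, 5.49% ± 5.39 after Dnmt3b, 1.95% ± 2.64 after Dnmt3a, 2.18% ± 2.28 in the double knockdown and 0.657% ± 0.956 after Dnmt1 knockdown. Its level was uneven: the 7 minus-strand cytosines at its end of higher coordinates averaged 10.8% in control, and the other 14 averaged 2.76%. Dnmt3a knockdown read 4.47% and 0.686% in these parts, a split chosen after the values were seen. The highest single level was 17.8% at position 63859914, which read 5.70% after Dnmt3a knockdown. The Gata6 block (30 cytosines, chromosome 18, 11054635 to 11054902) averaged 2.07% ± 2.65 in control, 2.11% after Tet1 and Tet2, 1.39% after Dnmt3b, 0.587% after Dnmt3a, 0.550% in the double knockdown and 0.300% after Dnmt1 knockdown. Its highest cytosine read 8.30% in control and 0% in each of the other 5 libraries.

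The T block (10 cytosines, chromosome 17, 8626304 to 8626404) averaged 2.72% ± 2.69 in control and 0% at all 10 cytosines after Dnmt1 knockdown. It read 2.64% after Tet1 and Tet2, 2.67% after Dnmt3b, 1.42% after Dnmt3a and 0.430% in the double knockdown. Here the strands did not agree on Dnmt3a: its 3 plus-strand cytosines averaged 4.73% against 2.70% in control, while its 7 minus-strand cytosines averaged 0% against 2.73%. The Dnmt3a difference at T is therefore within the disagreement of strands. A neighbouring short cluster of 9 T cytosines (8626847 to 8626995) read 0.10% in control and 0.60% in its highest library, Dnmt3b.

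Sox17, Cdx2 and Eomes were nearly free of methylation. The Sox17 block (14 cytosines, chromosome 1, 4482051 to 4482212) averaged 0.257% in control and between 0.0786% (Dnmt3a) and 0.286% (Dnmt3b) in the knockdowns, with no cytosine above 1.20% in any library. The Eomes block (14 cytosines, chromosome 9, 118388109 to 118388230) averaged 0.107% in control and 0% in the double knockdown, with 12 of 14 cytosines at 0 in control. The Cdx2 blocks (20 and 21 cytosines, chromosome 5, 148117970 to 148118128 and 148118312 to 148118528) averaged 0.880% and 0.638% in control and 0.155% and 0.176% after Dnmt3a knockdown. The second Cdx2 block read 0.786% after Dnmt1 knockdown, which was above control. A single cytosine at 13.3% (position 148118503) sets this value, and without it the block read 0.160% against 0.670% in control. For comparison, the 94 mitochondrial cytosines, often read as a measure of incomplete conversion, averaged 0% in control and 0.066%, the highest of the libraries, after Dnmt1 knockdown.

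The flanks carried most of the methylation of these loci. Over the 8 loci control averaged 12.2% ± 7.2 (SD over loci), Tet1 and Tet2 14.8% ± 8.7, Dnmt3b 13.2% ± 8.3, Dnmt3a 7.56% ± 5.44, the double knockdown 7.43% ± 5.65 and Dnmt1 1.70% ± 1.09. The Tet1 and Tet2 library was above control and the Dnmt1 and Dnmt3a libraries were below it at all 8 loci. The double knockdown was below control at every locus except Sox17, where it read 0.753% against 0.491%. This exception rests on a pair of Sox17 cytosines, without which the double knockdown read 0.187% and control 0.357%. For Dnmt3b the differences from control went from -3.06 points at Cdx2 to 5.37 points at Gata6.

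**Figure D3:**
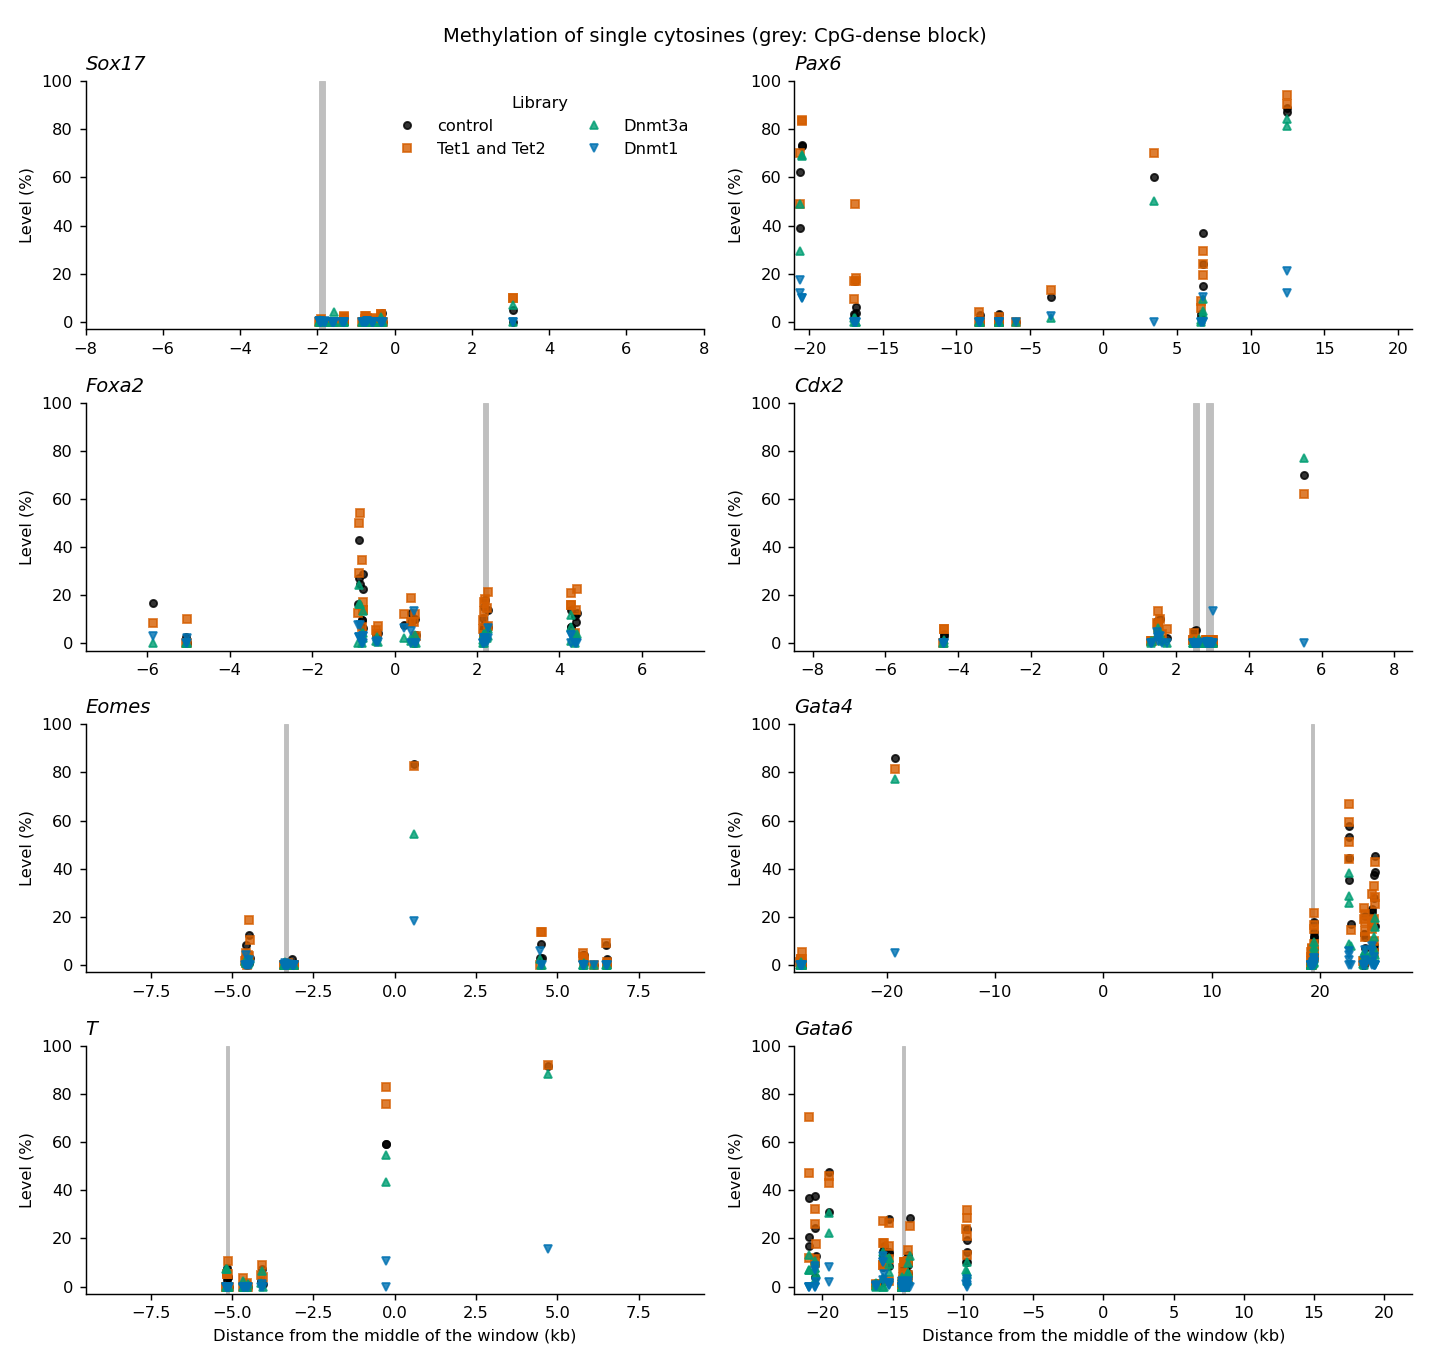
Methylation level in percent (y axes) of single cytosines listed in all 6 libraries against distance in kb from the middle of each gene's window (x axes), for the control, Tet1 and Tet2, Dnmt3a and Dnmt1 libraries, with CpG-dense blocks in grey. Sox17 stays at or below 10% in these 4 libraries, while Pax6, T, Eomes, Cdx2 and Gata4 each have isolated cytosines above 60% in control.

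Gata4 had intermediate flanks on the side of the block with higher coordinates. A group of 4 isolated cytosines averaged 47.8% in control, 55.3% after Tet1 and Tet2, 53.1% after Dnmt3b, 25.4% after Dnmt3a, 29.8% in the double knockdown and 3.08% after Dnmt1 knockdown. A cluster of 7 cytosines further on (63865409 to 63865535) averaged 25.7% in control, 23.3% after Tet1 and Tet2, 24.1% after Dnmt3b, 9.26% after Dnmt3a, 8.94% in the double knockdown and 0.471% after Dnmt1 knockdown. All 7 were lower than control in the last 3 of these libraries. Between them, a cluster of 8 (63864434 to 63864639) read 8.31% in control and 13.8% after Tet1 and Tet2, with all 8 higher. On the other side of the gene a cluster of 9 (63812566 to 63812679) read 0.278% in control, while a single cytosine at 63821318 read 85.9%.

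All 33 Gata6 flank cytosines were above 0 in control, with a mean of 15.5% ± 11.5. A few were nearly free of methylation, at 0.20% (11052791), 1.0% (11052793) and 1.40% (11052827). The 33 Gata6 cytosines averaged 19.5% ± 15.6 after Tet1 and Tet2 and 20.8% ± 15.97 after Dnmt3b knockdown. They averaged 7.45% ± 6.43 after Dnmt3a, 6.39% ± 7.30 in the double knockdown and 2.58% ± 3.57 after Dnmt1 knockdown. Its cluster at 11059255 to 11059295 (5 cytosines on the minus strand) read 15.5% in control, 23.7% after Tet1 and Tet2, 24.9% after Dnmt3b, 6.10% after Dnmt3a, 6.80% in the double knockdown and 1.32% after Dnmt1 knockdown. All 5 were higher after Tet1 and Tet2 knockdown and all 5 lower in the Dnmt1, Dnmt3a and double knockdown libraries. The cluster at 11053322 to 11053358 (5 cytosines on the plus strand) differed in Dnmt1: it read 10.8% in control and 8.22% after Dnmt1 knockdown, with 3 cytosines lower and 2 higher, while Dnmt3a read 4.30% and the double knockdown 0.560%. Another cluster (11048467 to 11048510, 5 cytosines) read 17.6% in control and 28.4% after Dnmt3b knockdown, with all 5 higher. The largest single gain of any member after Tet1 and Tet2 knockdown was at position 11048018, which read 20.7% in control and 70.6%.

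Pax6 had no block but showed the largest cluster gain after Tet1 and Tet2 knockdown. Its 9 cytosines from 105515547 to 105518071 averaged 0.70% in control, the highest library there. A cluster of 5 cytosines (chromosome 2, 105507065 to 105507219) read 6.26% in control, 22.2% after Tet1 and Tet2, 13.4% after Dnmt3b, 2.66% in the double knockdown, 0.580% after Dnmt3a and 0% after Dnmt1 knockdown. All 5 were higher after Tet1 and Tet2 knockdown, on both strands, and the cytosine at 105507109 read 49.1% against 16.9%. A second cluster of 5 (105530629 to 105530777) read 16.2% in control and 17.5% after Tet1 and Tet2, but 3.58% after Dnmt3a, 3.40% in the double knockdown and 2.06% after Dnmt1 knockdown. The first 4 cytosines of the window averaged 62.0% in control, 71.6% after Tet1 and Tet2, 54.2% after Dnmt3a and 12.3% after Dnmt1 knockdown.

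Foxa2 carried partial methylation beyond its block. A cluster of 9 cytosines (147869622 to 147869734) read 20.9% in control, 25.8% after Tet1 and Tet2, 17.6% after Dnmt3b, 9.0% after Dnmt3a, 7.41% in the double knockdown and 2.93% after Dnmt1 knockdown. On the upstream side, a cluster of 6 (147874776 to 147874920) read 10.2% in control, 15.6% after Tet1 and Tet2, 4.42% after Dnmt3a and 1.10% after Dnmt1 knockdown. All 9 and all 6 cytosines were lower than control in the Dnmt1, Dnmt3a and double knockdown libraries. In a cluster of 5 on the minus strand (147870898 to 147871012) this did not hold throughout. It read 7.10% in control, 3.66% after Dnmt1, 1.44% after Dnmt3a and 3.10% in the double knockdown, and the cytosine at 147870972 read 0% in control but 13.3% after Dnmt1 knockdown and 2.90% in the double knockdown.

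The cytosine with the largest Tet1 and Tet2 gain was also taken at each of the other genes. It read 13.6% against 4.70% in control at Cdx2 (148117007), 13.6% against 2.90% at Eomes (118396027) and 67% against 53.3% at Gata4 (63863145). At Foxa2 (147869666) it read 54.2% against 24.5%, at T (8631244) 82.8% against 59.1%, and at Sox17 (4487072) 10% against 0%. All of these lay in flanks. In the blocks, the highest control level was 5.60% at Cdx2 (148118053), 7.70% at T (8626364), 0.90% at Sox17 (4482061) and 0.80% at Eomes (118388136).

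At Sox17, Eomes, Cdx2 and T the flanks were mostly low near the block. At Eomes, Cdx2 and T only isolated cytosines were above 50% in control, and no Sox17 flank cytosine was above 5.0%. A Cdx2 short cluster of 6 (148116971 to 148117105) read 6.78% in control and 3.45% after Dnmt3a knockdown. An Eomes short cluster of 8 (118386900 to 118387043) read 3.89% and 1.35%. The 30 Sox17 cytosines in short clusters read 0.357% in control and 0.80% in their highest library, Tet1 and Tet2. A pair of Sox17 cytosines apart from these (4487069 and 4487072) read 5.0% and 0% in control but 15.4% and 46.2% after Dnmt3b knockdown, and without this pair the Sox17 flank read 0.393% after Dnmt3b knockdown in place of 2.29%. Eomes had 1 cytosine at 83.6% (118392110), which read 54.5% after Dnmt3a, 58.9% in the double knockdown and 18.4% after Dnmt1 knockdown, while its 11 cytosines at the far end averaged 3.32% in control and 0.309% after Dnmt3a knockdown. Cdx2 had 1 at 70% (148121030), which read 76.9% after Dnmt3a and 0% after Dnmt1 knockdown. T had 3 above 50%: 59.1% at both 8631231 and 8631244, where Tet1 and Tet2 read 75.9% and 82.8%, and 91.4% at 8636210, which read 88.2% after Dnmt3a and 15.5% after Dnmt1 knockdown.

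Flank cytosines further from the block had higher levels, and beyond 1000 bp the members read lower than autosomal cytosines at the same distance. Within 1000 bp of a block of the same gene, 48 cytosines averaged 3.85% in control, against 5.38% for 31913 autosomal flank cytosines at that distance from any block. Beyond 1000 bp and up to 4000 bp the members averaged 11.1% (70 cytosines) and the autosomes 36.7%. Beyond 4000 bp and up to 50000 bp they averaged 15.1% (67 cytosines) and 51.3%. After Dnmt1 knockdown the last pair of values was 1.53% and 9.89%, and after Tet1 and Tet2 knockdown 18.5% and 54.4%. Pax6, with no block, is not in these values. Over all 8 genes, 136 of the 212 flank cytosines lay in short clusters, and the same share on the autosomes was not computed. The part of CpG density in these differences was not tested. This is a description of levels, with no test, and cytosines of a locus are not independent.

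**Figure D4:**
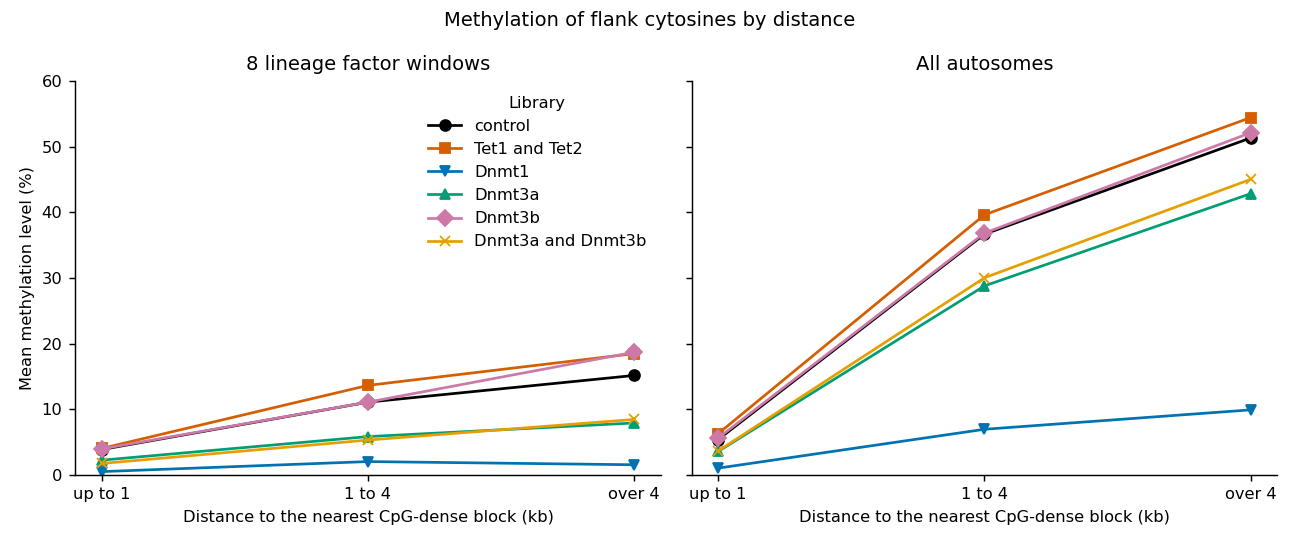
Mean methylation level in percent (y axes) of flank cytosines by distance in kb to the nearest CpG-dense block (x axes) in the 8 windows (left, Pax6 left out) and on all autosomes (right), with 1 line per library. Beyond 4 kb the control mean is 15.1% in the windows and 51.3% on the autosomes.

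Counted by size, most member cytosines stayed within 20 points of control. After Dnmt1 knockdown 34 of 352 (9.66%) were lower by at least 20 points, against 31.8% of all autosomal cytosines. All 34 lay in flanks. No block cytosine was above 17.9% in control, so none there could be lower by 20 points. Of the 34, 9 were at Gata4, 9 at Pax6 and 8 at Gata6. After Dnmt3a knockdown 12 (3.41%) were lower, against a background of 5.85%, and 6 of the 12 were at Gata4. In the double knockdown 14 (3.98%) were lower, against 3.44%. After Tet1 and Tet2 knockdown 5 (1.42%) were higher, against 1.53%: 2 at Foxa2 and 1 each at Pax6, T and Gata6. After Dnmt3b knockdown 5 (1.42%) were higher, against 0.835%, and 2 were lower, against 0.463%. Of the 5 higher ones 4 were at Gata6 and the other was the Sox17 cytosine at 46.2%. The Tet1 and Tet2 and the double knockdown shares are near the background. Beside the Dnmt1 share, 92.3% of the members had a median below 20%, against 68.4% of all autosomal cytosines; its part in the count was not tested. In the other direction no member differed by 20 points, where the background was 0.357% lower for Tet1 and Tet2, and 0.00813%, 0.0826% and 0.127% higher for Dnmt1, Dnmt3a and the double knockdown.

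Other sizes were also counted over the 352 members, and the shares in parentheses here are of all autosomal cytosines. With 10 points in place of 20, the Dnmt1 library had 68 lower (34.8%) and 3 higher (0.0479%). Dnmt3a had 46 lower (17%) and 0 higher (0.543%). The double knockdown had 42 lower (12.5%) and 1 higher (0.832%). Tet1 and Tet2 had 28 higher (7.21%) and 2 lower (1.96%), and Dnmt3b had 20 higher (4.45%) and 9 lower (2.79%). As shares of the members, the counts of 68, 46, 42, 28 and 20 were 19.3%, 13.1%, 11.9%, 7.95% and 5.68%. Block cytosines were among these: 6 of the 68, 5 of the 46, 3 of the 42 and 4 of the 28. With 30 points, Dnmt1 had 22 lower (29.7%) and 0 higher (0.0019%), Dnmt3a 3 lower (1.56%) and 0 higher (0.0179%), and the double knockdown 4 lower (0.743%) and 0 higher (0.0246%). Tet1 and Tet2 had 2 higher (0.327%), which were the Gata6 and Pax6 cytosines at 11048018 and 105507109, and 0 lower (0.0707%). Dnmt3b had 1 higher (0.167%) and 0 lower (0.0891%).

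None of the 8 blocks differed from control by 20 points in any knockdown. The highest block mean in control was 9.27%, at Foxa2, so none could have been lower by that much. Of all blocks 4.69% were lower by 20 points for Dnmt1, 0.717% for Dnmt3a, 0.212% for the double knockdown and 0% for Dnmt3b and for Tet1 and Tet2, while 0.0202% were higher for Tet1 and Tet2 and 0% for the others. By direction alone, all 8 member blocks were lower than control after Dnmt3a knockdown and all 8 in the double knockdown, where 64.4% and 63.3% of all blocks were lower. After Dnmt1 knockdown 7 of 8 were lower, against 66.3%, and 1 was higher (16.5%), the second Cdx2 block. None was higher for Dnmt3a (18.7%) or the double knockdown (21.5%). After Tet1 and Tet2 knockdown 4 were higher and 4 lower, against 57.7% and 28.7%, and Dnmt3b also gave 4 and 4, against 46.5% and 38.7%. A block at 0 in control cannot be lower, so the shares of lower blocks also count how many carry some methylation. All 8 member blocks were above 0 in control, while the median block of all autosomes read 0.113%.

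Among the 21 shorter clusters, 18 were higher after Tet1 and Tet2 knockdown, against 61.4% of 12628 such clusters on the autosomes, and 1, the Pax6 cluster, was higher by at least 10 points, against 4.87%. Of the 21, 19 were lower after Dnmt3a knockdown (background 72.1%), 18 in the double knockdown (69.9%) and 20 after Dnmt1 knockdown (73.9%). The others were 2 lower for Tet1 and Tet2 (23%), 2 higher for Dnmt3a (9.57%), 1 higher for the double knockdown (12.1%), 0 higher for Dnmt1 (5.99%), and 12 higher and 8 lower for Dnmt3b (47.5% and 35.7%). By at least 10 points, 5 were lower for Dnmt1 (41.8%), 4 for Dnmt3a (22%), 5 for the double knockdown (13.8%), 0 for Dnmt3b (0.657%) and 0 for Tet1 and Tet2 (0.372%). By that size 1 was higher for Dnmt3b (2.22%), and 0 for Dnmt1 (0%), Dnmt3a (0.0158%) and the double knockdown (0.0634%). A cluster at 0 in control cannot be lower, so the shares of lower clusters also count how many carry some methylation. All 5 comparisons share the control library.

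To set the members beside sequence of like level, cytosines were taken for which the Tet1 and Tet2 level and the Dnmt3b level averaged from 5% to 50%, so that control, Dnmt1, Dnmt3a and the double knockdown took no part in the choice. The 115 such members averaged 13.5% in control, 5.40% after Dnmt3a, 5.29% in the double knockdown and 2.11% after Dnmt1 knockdown. Autosomal cytosines weighted to the same levels, in steps of 5 points, averaged 14.3%, 6.76%, 7.79% and 2.78%. Relative to control, the members stood at 40.1% after Dnmt3a, 39.3% in the double knockdown and 15.7% after Dnmt1 knockdown, and the autosomes at 47.3%, 54.5% and 19.5%. By direction and without the weighting, 89.6% of the members and 88.4% of the autosomal cytosines were lower than control after Dnmt3a knockdown. In the double knockdown these shares were 88.7% and 85.3%, and after Dnmt1 knockdown 91.3% and 92.0%. For the 4 genes with at least 10 such cytosines, the Dnmt3a level was 35% of control at Gata4 (25 cytosines), 37.5% at Foxa2 (30), 32.1% at Pax6 (12) and 50% at Gata6 (32). In the double knockdown these were 37.3%, 35.5%, 41.4% and 42.9%. The other genes had 2 to 6 such cytosines each. Their Dnmt3a and double knockdown levels were 46.1% and 38.2% of control at Cdx2 (6), 14.1% and 14.4% at Eomes (5), and 44.3% and 12.8% at T (3). Sox17 (2) went the other way, at 142% and 370% of a control level of 2.5%. The comparison was chosen after the data were seen and has no test.

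**Figure D5:**
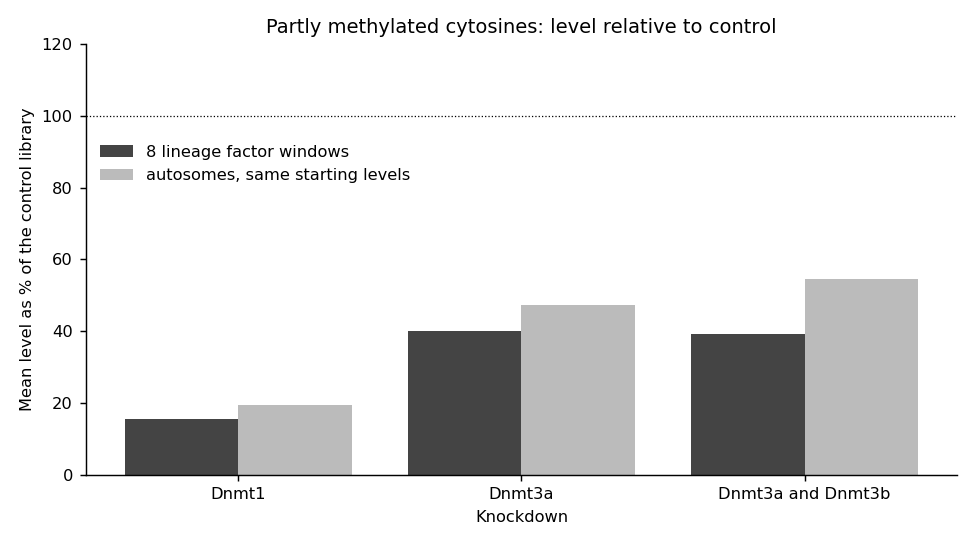
Mean level as a percent of the control library (y axis) for partly methylated cytosines in the Dnmt1, Dnmt3a and double knockdown libraries (x axis), with dark bars for the 115 member cytosines and light bars for autosomal cytosines of the same levels. The widest gap is in the double knockdown, at 39.3% against 54.5%.

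Other lineage factors were placed on mm9 in the way used for Foxa2. Of 36 listed, 26 had a RefSeq promoter at hand, 8 could be placed, and 7 of these had cytosines listed in all 6 libraries within 1000 bp of the start. In control these 7 averaged 1.05% ± 1.45 (SD over genes). Gata2 (a zinc finger factor of blood and trophoblast) was highest at 3.49%, followed by Ascl2 (a basic helix-loop-helix factor of trophoblast) at 2.78% and Onecut1 (a homeobox factor of liver and pancreas) at 0.586%. Neurog1 (a proneural factor) was lowest at 0%, then Isl1 (a LIM homeobox factor) at 0.080% and Msx1 (a homeobox factor) at 0.158%. The placed Foxa2 start, at 9.27% within the same distance, was above all 7. Foxa2 starts 2 and 3, with 23 and 13 CG pairs in 300 bases, could not be placed. Their levels are therefore not known, and the same holds for start 2 of Gata2. The starts differ in CpG density: the placed Foxa2 promoter held 12 CG pairs in 300 bases, and those of the 7 held from 23 (Ascl2) to 38 (Onecut1). The part of density in the levels was not tested. The Ascl2 mean includes a cytosine at 41.5%. Gata2 read 1.41% after Dnmt3a, 0.721% in the double knockdown and 0.193% after Dnmt1 knockdown, and 4.32% after Tet1 and Tet2 knockdown, which is the same order of libraries as at Foxa2 except that its Dnmt3b level, 3.46%, was just below control.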

How the data were processed

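Per the labels' protocols, genomic DNA of E14 cells was cut with MspI, made into TruSeq libraries, bisulfite converted (EpiTect) and run on a HiScanSQ. CASAVA 1.8, Bismark 0.10.1 and the mm9 build are named in the submitters' processing notes. The authors deposited methylation fractions (0 to 1, 3 decimals) for single CpG cytosines, with 1 file per library and no counts or coverage. Depth per cytosine is therefore unknown, and no interval, Fisher's exact test or test between conditions was possible. The libraries gave a level for 444949 (Dnmt1) to 604092 (Tet1 and Tet2) cytosines, leaving out those listed without one. The title of the Dnmt1 sample says Dnmt1a, and its treatment label was followed.

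Fractions were multiplied into percent. Cytosines listed in all 6 libraries were used, joined in Python 3.11.15 (NumPy 2.4.6, pandas 2.3.3). Plots used matplotlib 3.10.9. A block counted as lower or higher by 20 points when its cytosines differed by that much on average and 80% of them went the same way. Named items are all 8 genes, their blocks, per gene the cytosines with the highest control level in a block and the largest Tet1 and Tet2 gain, and the 3 highest and 3 lowest other factors. Short clusters and other items were named after their values were seen. A promoter was placed where at least 6 contexts matched, with no mismatch and no equal second place. Placement was tested on simulated sequences. Block calling was tested on simulated drops at an assumed depth, planted only in blocks far more methylated than the member blocks. It therefore does not bear on calls in the member blocks. The members and lists were chosen with earlier results of these data known.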

Additional observations from a re-analysis of the deposited data

How the results depend on the processing

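No paired analysis was possible because each group has 1 library, and for the same reason none could be left out. Levels and differences were counted as moved when they left the main value by more than 1 SD over loci, and counts when they differed by more than 1.5 times. Of 350 alternative values 305 stayed, 41 moved and 4 changed sign. The cause was not tested unless named. The 1 SD rule is wide for block levels, where the SD over loci exceeded the mean in every library. The control block level, 2.95%, counted as stayed at both 1.41% (gaps of 50 bp) and 5.35% (at least 5 cytosines per block). With gaps of 50 bp the Foxa2 block was split and no longer counted as a block. Many values that stayed are block counts of 0, and no main block was high enough in control to be lower by 20 points. Sign changes were in small block differences. Tet1 and Tet2 minus control, 0.328 points, read -0.031 with gaps of 50 bp, -0.029 on the plus strand and -0.041 as the median over loci, and 2.0 with at least 5 cytosines per block, a setting that turns the short clusters into blocks. Dnmt3b minus control, -0.13 points, read 0.445 with at least 5. With at least 5 the flank levels moved to 13.5% (Dnmt3a), 23.2% (Dnmt3b) and 14.3% (double), and the Dnmt3b flank difference to 4.35 points, or 3.98 with gaps of 300 bp, against 0.976. At 10 points 68 cytosines were lower and 3 higher for Dnmt1, 46 lower for Dnmt3a, 42 lower and 1 higher for the double, 9 lower and 20 higher for Dnmt3b, and 2 lower and 28 higher for Tet1 and Tet2. At 30 points the lower counts were 22 (Dnmt1), 3 (Dnmt3a), 4 (double) and 0 (Dnmt3b), and the higher ones 2 (Tet1 and Tet2) and 1 (Dnmt3b). Over cytosines listed in control and the knockdown, a larger set, 34 were lower and 3 higher for Dnmt3a, 39 lower for the double, 5 lower and 9 higher for Dnmt3b, and 2 lower and 14 higher for Tet1 and Tet2. For Dnmt1, 1 block was lower with at least 5 cytosines per block and 1 with gaps of 300 bp, against 0. Shares over all autosomes were not computed for the larger set or for these block rules, so these counts have no background. The share of block cytosines above 0% was 58.6% in control, 53.6% for Tet1 and Tet2, 26.4% for Dnmt1, 32.1% for Dnmt3a, 52.1% for Dnmt3b and 37.1% for the double.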

Other observations

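Cytosines of the 8 loci listed in fewer than 6 libraries entered none of the comparisons. The 209 that control lists averaged 16.8%, the 227 of Dnmt3a 12.3%, the 186 of Dnmt3b 20.6%, the 172 of Tet1 and Tet2 17.3%, the 175 of the double knockdown 11.1% and the 55 of Dnmt1 0.684%. These sets differ between libraries, so the values are not compared.

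Only 2 CpGs of the 8 loci were read on both strands in every library. At Gata6 the strands read 1.70% and 2.40% in control and 1.5% and 4.10% after Dnmt3a knockdown. At Cdx2 both read 0% in control. On the autosomes the strands of 373 CpGs with a mean from 5% to 20% in control differed by an SD of 7.92 points. This is the SD of a difference between a pair of cytosines, and it holds any true difference between the strands as well as error.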
